A study of Mus musculus with 12 samples.

Results

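The heat shock proteins and molecular chaperones were followed in whole mouse testis over adult life. They were taken by name, as every gene symbol that begins with Hspa, Hspb, Hsp90, Dnaja, Dnajb, Dnajc, Cct, Bag or Hsf followed by a digit, together with Hspd1, Hspe1 and Hsph1. This gave 93 genes of the 24516 gene symbols in the assembly, and 279 transcripts of 71967. The genes comprised 14 of the HSP70 family (Hspa genes and Hsph1), 3 of the HSP90 family, 8 small heat shock proteins (Hspb), 11 chaperonin genes (Hspd1, Hspe1 and the Cct genes), 45 J proteins (Dnaja, Dnajb and Dnajc), 6 BAG genes and 6 genes whose symbols begin with Hsf.

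Testes of 12 wild-type C57BL/6 mice were examined, 3 mice at each of 3, 6, 12 and 18 months of age (3M, 6M, 12M and 18M), with 1 total RNA library per mouse after removal of ribosomal RNA. The labels name no treatment in any group, and they do not say whether mice of an age shared a litter or a day of dissection, so the p-values measure the spread between these libraries. The age series asks which genes differ between the young and the aged testis. Whole testis was sequenced, and in such tissue fewer cells of a type and less RNA per cell cannot be told apart.

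Chaperones bind proteins that are not yet folded, or that have unfolded, and keep them from aggregating. HSP70 proteins bind and release their clients in a cycle driven by ATP, J proteins deliver the clients and start that cycle, and BAG proteins help to reset it. HSP90 proteins act later on folding clients such as kinases and hormone receptors, the chaperonins enclose a protein in a chamber, and heat shock factors (HSF) switch many of these genes on under stress. Male germ cells are known for chaperones of their own, made without heat stress during meiosis and spermatid development, such as Hspa2, Hspa1l and Hspa4l.

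The members took between 1.74% and 1.80% of all assigned reads in each library, and the libraries held 50924104 to 71803379 assigned reads. Markers of spermatogonia, spermatocytes, round and elongating spermatids, Sertoli cells and Leydig cells were all detected, with none of these genes listed at 0. All 12 pairs of libraries of the same age had a correlation of log2 CPM (read counts scaled to a common library size) across genes between 0.991 and 0.994.

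Chaperone transcripts were abundant in the testis at every age. Levels between genes were compared as FPKM (fragments per kilobase of transcript, scaled to the library's mapped fragments and summed over a gene's transcripts), which allows for transcript length. Averaged over the 12 mice, 23 members had 100 FPKM or more, 43 lay between 10 and 100, 20 between 1 and 10, and 7 were below 1. The median member stood at 29.7 FPKM, and the 10 highest members carried 47.5% of the summed FPKM. In order, the highest were Dnajb3, Hsp90aa1, Hspb9, Hspa2, Hspa1l, Bag5, Dnajb8, Hspa4l, Bag6 and Bag1. The lowest were Hsf3 and Hsf4, with means of 0.0119 and 0.0888 FPKM, and Hspb3 with 0.140 FPKM. Hsf3 and Hspb3 had too few reads to be tested, 10 reads or fewer for Hsf3 and 3 to 12 reads for Hspb3 in any library, so 91 of the 93 members entered the tests.

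**Figure D1:**
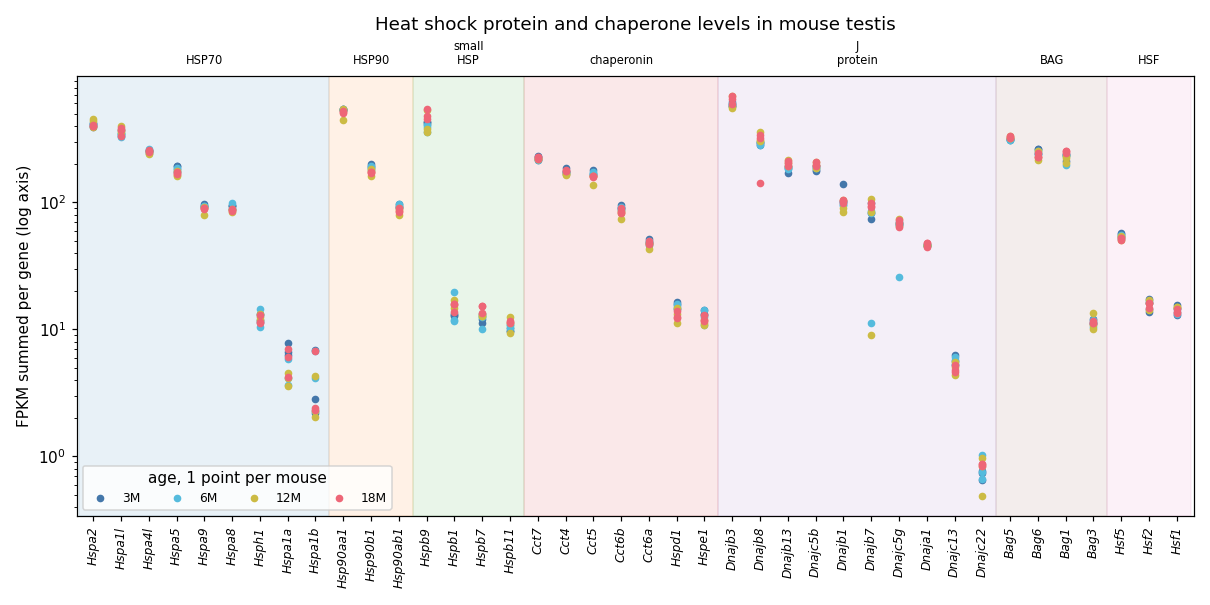
Level of the named members in FPKM summed per gene (log axis), with 1 point per mouse, coloured by age and grouped by family. Hsf4, which is listed at 0 in 1 library, is left out. Germ cell members such as Dnajb3, Hspb9, Hspa2 and Hspa1l sit above 100 FPKM in every mouse, whereas Hspa1a and Hspa1b stay below 10 FPKM, and 1 or 2 points each of Dnajb7, Dnajc5g and Dnajb8 lie far below the others of the same gene.

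No member passed the test for an age difference. Reads were summed per gene and tested with edgeR's quasi-likelihood test, with the Benjamini-Hochberg adjusted p taken over all genes tested and called at 0.05 or less. On the slope over age in all 12 mice 0 of 91 members were called, against 76 of all 18545 genes (0.41%), and the smallest adjusted p of a member was 0.129. For any difference among the 4 ages 0 of 91 were called, against 17 of 18545 genes (0.0917%), with a smallest adjusted p of 0.402. For 18M against 3M 0 of 91 were called, against 12 of 18130 genes (0.0662%), with a smallest adjusted p of 0.281. DESeq2 called 2 of 91 members on the slope (2.2%), Hspb7 (adjusted p = 0.0392) and Hspd1 (adjusted p = 0.0406), against 576 of 18505 genes (3.11%). It called 0 members in the other 2 comparisons, against 2.13% of genes for any age difference and 1.44% for 18M against 3M.

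Counts without adjustment were also read against all genes. At an unadjusted p of 0.05 or less 15 members had a rising slope on age (16.5%, against 8.26% of all genes) and 7 a falling one (7.69%, against 9.23%). For any age difference the count was 8 (8.79%, against 10.3%). For 18M against 3M it was 9 members higher (9.89%, against 6.28%) and 6 lower (6.59%, against 7.25%). In 15 members all 3 mice at 18M lay above all 3 at 3M (16.5%, against 9.58% of genes), and in another 15 all lay below (16.5%, against 10.7%).

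The differences between 3M and 18M were small and closely bounded. The median log2 fold change, 18M minus 3M, was 0.02 over the 91 members and 0.00 over all genes tested, and the median size without its sign was 0.09 against 0.12. In 77 of the 91 members the log2 fold change was less than 0.2 in size, and in 88 it was less than 0.3. The 95% confidence interval lay wholly between -0.5 and 0.5 in 82 members and between -1 and 1 in 88. The 3 members past 0.3 were Hsf4, Hspb2 and Hspb8, all below 1 FPKM. Hspb2 had a log2 fold change of 0.92 and Hspb8 of -0.55, with intervals that both contained 0 (-0.34 to 2.19 and -1.60 to 0.50). Both were singled out after their values were seen.

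**Figure D2:**
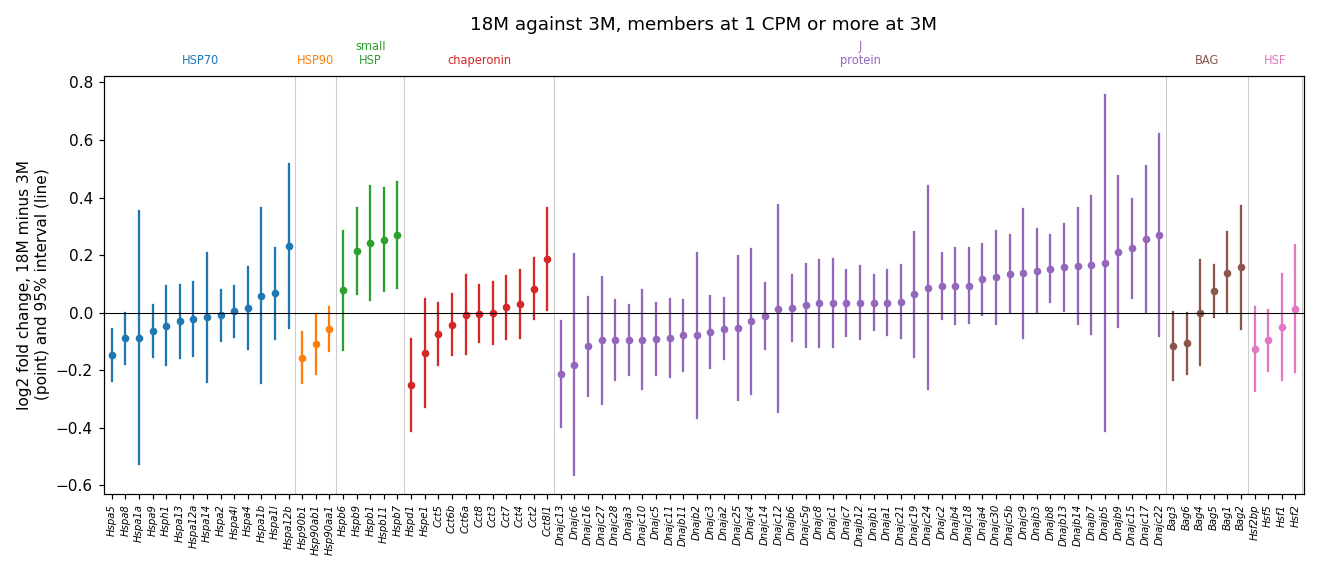
Log2 fold change in reads per gene, 18M minus 3M, for the tested members with at least 1 CPM at 3M. Points are edgeR estimates from 3 mice per age, lines are 95% confidence intervals, and members are ordered within each family. Most intervals cross 0, and no estimate is larger than 0.27 in size.

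The HSP70 family was led by its germ cell members. Hspa2, the HSP70 of meiotic and later germ cells (chr12:76404176-76406936), had 408 ± 13.1 FPKM at 3M and 401 ± 3.46 FPKM at 18M (SD, n = 3 mice, as for all means below). Hspa1l, the testis HSP70 of spermatids, had 349 ± 19.3 and 362 ± 26.1 FPKM, and Hspa4l, a member of the HSP110 branch that exchanges the nucleotide of HSP70, had 256 ± 3.39 and 254 ± 6.05 FPKM. Every mouse had more Hspa1l (325 to 396 FPKM) than any had Hspa4l (up to 261 FPKM), while the ranges of Hspa2 (390 to 450 FPKM) and Hspa1l overlapped. Log2 fold changes, 18M minus 3M, were -0.01 for Hspa2, 0.07 for Hspa1l and 0.00 for Hspa4l, with 95% intervals of -0.10 to 0.08, -0.09 to 0.23 and -0.09 to 0.09.

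Hspa8, the constitutive cytosolic HSP70 of most cells, stood well below its germ cell relative. The FPKM ratio of Hspa2 to Hspa8 within a mouse was 4.35 ± 0.168 at 3M, 4.43 ± 0.203 at 6M, 4.90 ± 0.250 at 12M and, in the 18M mice, 4.60 ± 0.0774. In CPM, used here to compare 1 gene between mice, Hspa8 had 224, 217 and 223 in the 3M mice and 208, 206 and 210 in the 18M mice. The 18M mice all lay below the 3M mice, with a log2 fold change of -0.09 (95% interval -0.18 to 0.00, adjusted p = 0.368 by edgeR). DESeq2 called the single transcript of Hspa8 for 18M against 3M (adjusted p = 1.97e-07) but not its gene sum. Hspa9, the mitochondrial HSP70 that pulls imported proteins into the matrix, had 329 ± 7.42 CPM at 3M and 315 ± 4.43 CPM at 18M, again with no overlap. Its log2 fold change was -0.06 (95% interval -0.15 to 0.03).

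The stress-inducible pair Hspa1a and Hspa1b was low in all mice. Hspa1a had 20.0, 16.4 and 22.0 CPM at 3M, 11.6, 18.3 and 12.7 at 6M, 13.3, 11.5 and 14.6 at 12M and, in the 18M mice, 19.2, 22.3 and 13.5. All 3M mice lay above all 12M mice, while the 6M and 18M mice overlapped both, and the unadjusted p for any age difference was 0.0452 by edgeR (adjusted p = 0.479). The coefficient of variation over the 12 mice was 24.3%, against a median of 6.25% over the members tested. Hspa1b had 7.28 ± 1.27 CPM at 3M and 7.58 ± 0.120 CPM at 18M. The log2 fold changes were -0.09 for Hspa1a (95% interval -0.53 to 0.35) and 0.06 for Hspa1b (-0.25 to 0.36). The immediate-early and stress genes Fos, Fosb, Jun, Junb, Egr1, Atf3, Dusp1 and Ier2, which can respond to handling of tissue, summed to between 11.9 and 15.9 FPKM in the 12 mice, and 0 of the 8 were called by edgeR on the slope (1 at an unadjusted p of 0.05 or less). Their part in the spread of Hspa1a was not tested.

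Hspa1l and Hspa1a are neighbours with very unequal levels, so their upstream sequences are shown. On chromosome 17 Hspa1a (chr17:34969359-34972156, minus strand, 1 exon) and Hspa1l (chr17:34972703-34979228, plus strand) are transcribed away from each other, with 546 bases between their starts. Hspa1b (chr17:34956429-34959238, minus strand) lies beside them. The FPKM of Hspa1l was 50.9 ± 8.15 times that of Hspa1a in the 3M mice, 78.1 ± 17.6 times at 6M, 91.7 ± 10.2 times at 12M and 66.0 ± 21.3 times in the 18M mice. The 250 bases before each start follow, 5′ to 3′ on the strand of the gene, from RefSeq on GRCm38.p6, which is the build called mm10. Capitals mark GAANNTTC or TTCNNGAA, the head-to-head and tail-to-tail pairs of the repeated unit that heat shock factors bind. Each motif is its own reverse complement, so 1 search covers both strands, and copies of both can overlap.
Hspa1a (chr17:34972157-34972406): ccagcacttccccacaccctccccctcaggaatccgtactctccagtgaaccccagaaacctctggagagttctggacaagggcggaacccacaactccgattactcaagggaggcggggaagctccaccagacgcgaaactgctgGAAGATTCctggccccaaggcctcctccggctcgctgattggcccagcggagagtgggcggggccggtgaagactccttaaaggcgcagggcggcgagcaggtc
Hspa1b (chr17:34959239-34959488): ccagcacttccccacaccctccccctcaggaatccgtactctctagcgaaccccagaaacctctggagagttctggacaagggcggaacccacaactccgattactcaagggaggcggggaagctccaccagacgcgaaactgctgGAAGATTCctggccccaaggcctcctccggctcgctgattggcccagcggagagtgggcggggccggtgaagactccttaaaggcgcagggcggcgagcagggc
Hspa1l (chr17:34972453-34972702): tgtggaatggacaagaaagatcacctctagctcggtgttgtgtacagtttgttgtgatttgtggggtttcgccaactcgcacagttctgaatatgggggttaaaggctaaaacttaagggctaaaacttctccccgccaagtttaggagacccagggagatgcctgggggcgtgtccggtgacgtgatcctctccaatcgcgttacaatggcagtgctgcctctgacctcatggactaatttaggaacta
The Hspa1a and Hspa1b stretches differed at 3 of 250 bases (98.8% identical), and each held 1 match that began 104 bases before the start. The Hspa1l stretch held neither motif. RefSeq windows of 300 bases, 250 before and 50 after a start, were found for 75 of the 93 members (95 windows). The 18 members without a window include Hsp90aa1, Hsp90ab1, Hspa8, Hspa9 and Hsf1. GAANNTTC occurred in 19 of these 95 windows (20.0%) and in 7.86% of all 32851 windows, and TTCNNGAA in 11 of 95 (11.6%) and 8.52%. The 19 windows belong to 17 genes and the 11 to 9. The matches are not all separate, since Hspa1a and Hspa1b are near copies and the windows of Hspd1 and Hspe1 overlap. The 22 genes with either motif include Hspa1a, Hspa1b, Hsph1, Hspb1, Hspd1, Hspe1, Bag3 and Dnaja1, known to respond to heat in many cells, and also Dnajc5g, Dnajc27, Cct8l1 and Hspb3. The windows of Dnajb1, which heat also induces, held neither motif. A match describes the letters only.

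The reads of Hspa1a and Hspa1b cannot be separated with certainty, since the genes are near copies, and assembled transcripts that overlap them without matching a reference (class o) ran on into the Hspa1l locus. Such a piece held 188 and 126 of the Hspa1a reads in 2 of the 3M mice and no more than 1 read in any other library. Another, of 290 bases, held 79, 78, 32 and 105 reads in 4 mice, 1 of each age, and 3 reads or fewer in the others. The FPKM of Hspa1b in those 4 mice was 6.91, 6.76, 4.32 and 6.80, against 2.05 to 4.14 in the other mice, while its CPM in all 12 lay between 6.13 and 9.36. Hsph1, an HSP110 family member induced by heat, had 68.4 ± 4.25 CPM at 3M and 66.3 ± 1.05 CPM at 18M. The remaining HSP70 members, Hspa4, Hspa12a, Hspa12b, Hspa13 and Hspa14, had means between 3.90 and 66.3 FPKM, and none had mice at 18M clear of those at 3M.

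In each of the 3 HSP90 genes all 3 mice at 18M lay below all 3 at 3M, which held for 10.7% of all genes. The amounts were small, and none of the 3 was called on gene sums by edgeR or DESeq2. DESeq2 did call the single transcripts of Hsp90aa1 (adjusted p = 0.00763) and Hsp90b1 (adjusted p = 5.18e-05) for 18M against 3M. Hsp90aa1, the cytosolic HSP90 that heat induces elsewhere and germ cells make constantly (chr12:110691036-110696395), had 538 ± 7.54 FPKM at 3M, 539 ± 7.39 at 6M, 505 ± 49.9 at 12M and, in the 18M mice, 513 ± 7.63. It exceeded its sister Hsp90ab1, the constitutive form of most tissues, by 5.71 ± 0.138 times in FPKM at 3M and 5.92 ± 0.177 times at 18M. The log2 fold change, 18M minus 3M, was -0.06 for Hsp90aa1 (95% interval -0.13 to 0.02) and -0.11 for Hsp90ab1 (-0.21 to -0.01, adjusted p = 0.357 by edgeR). Hsp90ab1 stood at 259, 274 and 267 CPM in the 3M mice and at 257, 244 and 241 CPM in the 18M mice.

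Hsp90b1, the HSP90 of the endoplasmic reticulum (chr10:86690841-86705444), showed the clearest order by age in the family. It had 582, 616 and 603 CPM at 3M, 590, 595 and 548 at 6M, 557, 574 and 504 at 12M and, in the 18M mice, 540, 535 and 541. The 18M mice lay close together and below every 3M and 6M mouse, and only 1 of the 12M mice was lower. The log2 fold change was -0.16 (95% interval -0.24 to -0.07), with an adjusted p of 0.281 by edgeR for 18M against 3M and 0.137 on the slope. Hspa5, the HSP70 of the same compartment and a sensor of unfolded protein there (chr2:34772090-34776529), had 526, 551 and 555 CPM at 3M, 507, 537 and 479 at 6M, 474, 514 and 464 at 12M and, in the 18M mice, 496, 483 and 493. Its log2 fold change was -0.15 (95% interval -0.24 to -0.06, adjusted p = 0.290 by edgeR). Reads of Hspa5 may include some of Gapvd1, a gene on the opposite strand with a transcript that overlaps it, since the library kit does not mark strand.

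Dnajb9, a J protein of the endoplasmic reticulum that stress there induces, had 35.6, 35.8 and 33.6 CPM at 3M and 36.2, 37.0 and 48.3 CPM at 18M, a log2 fold change of 0.21 (95% interval -0.05 to 0.47). Its highest values were 51.3 CPM in a 6M mouse and 52.7 CPM in a 12M mouse. Dnajb9 was named after its values were seen.

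**Figure D3:**
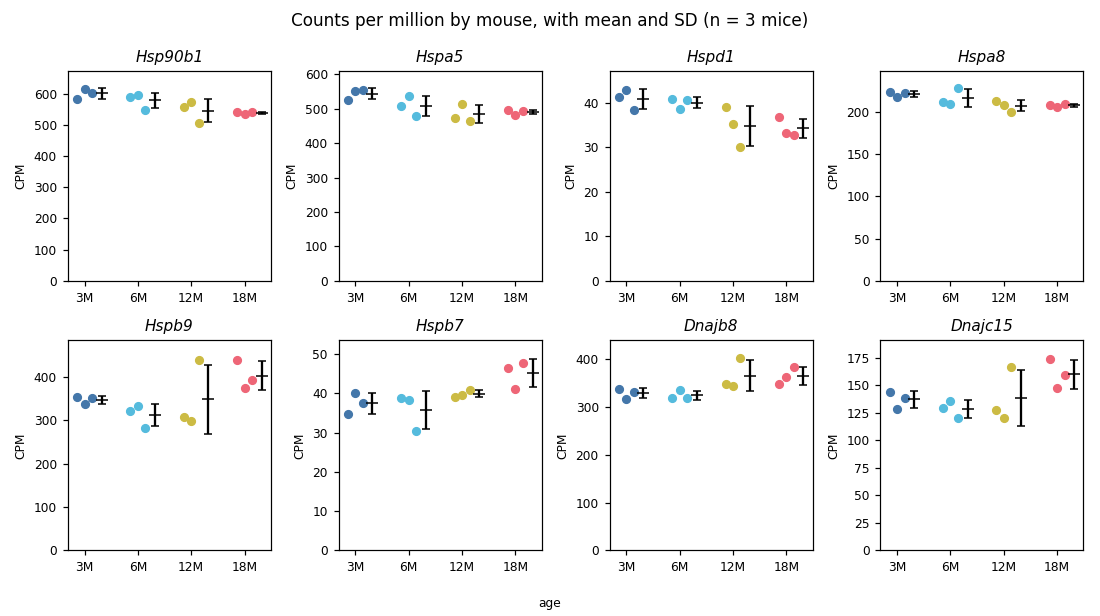
CPM, scaled by edgeR's TMM factors, of 8 members in each of the 12 mice, by age (axis from 0). Coloured points are mice and black bars the mean and SD of 3 mice. All 8 are drawn from the members whose 18M and 3M mice do not overlap, so the panels cannot show how common that is. In Hsp90b1, Hspa5, Hspd1 and Hspa8 the 3 mice at 18M lie below the 3 at 3M, as in 10.7% of all genes. In Hspb9, Hspb7, Dnajb8 and Dnajc15 they lie above, as in 9.58% of all genes. None of the 8 was called by edgeR.

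Among the chaperonins, the mitochondrial pair was scarce, and the cytosolic ring was abundant and differed little between ages. Neither gene of the mitochondrial pair was called by edgeR. Hspd1, the mitochondrial chamber protein (chr1:55077834-55087932), had 41.2, 42.7 and 38.3 CPM at 3M, 40.8, 38.6 and 40.7 at 6M, 39.0, 35.2 and 30.1 at 12M and, in the 18M mice, 36.7, 33.2 and 32.8. The 6M mice stood among the 3M mice, and the 18M mice below all mice of both ages. The log2 fold change was -0.25 (95% interval -0.41 to -0.09), and Hspd1 had the smallest adjusted p of all members on the slope, 0.129 by edgeR. Hspe1, the lid of that chamber (chr1:55088148-55091317), had 11.5, 12.2 and 11.2 CPM at 3M and 11.2, 10.2 and 10.4 CPM at 18M, a log2 fold change of -0.14 (95% interval -0.33 to 0.05). In CPM the highest 18M mouse lay just below the lowest 3M mouse, but in FPKM it lay above (12.93 against 12.88). The FPKM ratio of Hspd1 to Hspe1 was 1.15 ± 0.0324 at 3M and 1.07 ± 0.0203 at 18M.

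Hspd1 and Hspe1 are transcribed away from each other from a shared interval of 215 bases between their starts. The part of it that holds the heat shock motifs is shown because both genes start from this interval. It is written 5′ to 3′ on the strand of Hspe1, with overlapping matches in capitals, from RefSeq on GRCm38.p6.
Hspd1 and Hspe1 shared interval (chr1:55088053-55088082): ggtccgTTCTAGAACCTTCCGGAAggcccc
The run of matches began 89 bases before the Hspe1 start. It describes the letters only, and its part in the values of either gene was not tested. A pair of assembled Hspd1 transcripts reached past the Hspe1 start, where reads could not be assigned to a strand. The reference transcript of Hspd1, which does not reach it, held 87.1% of the Hspd1 reads.

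The cytosolic CCT ring, which folds actin and tubulin, stood at nearly the same level at all ages. Cct7 had 224 ± 7.81 FPKM at 3M and 225 ± 5.37 FPKM at 18M, Cct4 175 ± 9.38 and 177 ± 0.785, and Cct5 170 ± 7.63 and 160 ± 2.75. Over the 9 Cct genes the median log2 fold change was 0.00 and the median size 0.03, against 0.12 over all genes tested. The summed FPKM of the 9 was 1115 ± 37.5 at 3M, 1114 ± 7.66 at 6M, 1065 ± 30.1 at 12M and, in the 18M mice, 1111 ± 5.39. Cct6b, the testis form of the sixth subunit, had 90.6 ± 4.21 and 85.7 ± 4.26 FPKM, and its ubiquitous partner Cct6a 49.0 ± 2.78 and 48.2 ± 1.07. The ratio of Cct6b to Cct6a was 1.85 ± 0.102 at 3M and 1.78 ± 0.0980 at 18M. Cct8l1, a relative of the eighth subunit, had the largest log2 fold change of the group, 0.19 (95% interval 0.01 to 0.36, adjusted p = 0.358 by edgeR). It was named after its values were seen. In Cct8l1 all 18M mice lay above all 3M mice in CPM, as in 9.58% of all genes. In Cct5 they all lay below, as in 10.7% of all genes, with a log2 fold change of -0.07 (95% interval -0.18 to 0.03).

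The small heat shock proteins, which bind unfolded proteins without ATP, were led by a testis member, and edgeR called 0 of the 7 tested. Of these, 6 had a log2 fold change above 0 and 1 below, against 8988 above and 9142 below over all 18130 genes. A rising slope at an unadjusted p of 0.05 or less was found in 3 and a falling one in 0, against 8.26% and 9.23% of all genes. Hspb9, the testis small heat shock protein and by far the most abundant (chr11:100713850-100714575), had 354, 337 and 352 CPM at 3M, 321, 333 and 283 at 6M, 309, 298 and 440 at 12M and, in the 18M mice, 440, 375 and 393. All 18M mice were above all 3M mice, but the 6M mice were all below the 3M mice and the third 12M mouse stood level with the highest 18M mouse. The log2 fold change was 0.21 (95% interval 0.07 to 0.36, adjusted p = 0.293 by edgeR).

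The other small heat shock proteins were far lower. Hspb7, best known from heart muscle (chr4:141420779-141425310), had 34.8, 40.0 and 37.6 CPM at 3M, 38.8, 38.3 and 30.3 at 6M, 39.2, 39.7 and 40.9 at 12M and, in the 18M mice, 46.4, 41.1 and 47.8. Its log2 fold change was 0.27 (95% interval 0.09 to 0.45), with an adjusted p of 0.135 on the slope by edgeR. Hspb1, induced by heat in many cells, had 13.1 ± 0.254 CPM at 3M and 15.5 ± 1.33 CPM at 18M, a log2 fold change of 0.24 (0.04 to 0.44). The highest Hspb1 value was in a 6M mouse, at 19.5 CPM. Hspb11, which is an intraflagellar transport protein rather than a chaperone in its best known role, had 8.45 ± 0.117 CPM at 3M and 10.1 ± 0.427 at 18M, a log2 fold change of 0.25 (0.07 to 0.43). Its reads were spread over 6 assembled transcripts, and with the reference transcript alone, which held 19.4% of them, the log2 fold change was -0.57.

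The J proteins formed the largest group and included the highest member of all. Of the 45, 29 had a log2 fold change above 0 and 16 below, with a median of 0.04 and values between -0.21 and 0.27. On the slope 0 were called by edgeR, with 9 rising and 2 falling at an unadjusted p of 0.05 or less, against 8.26% and 9.23% of all genes. In the Dnajb subfamily 11 of 13 lay above 0, with a median of 0.15, against 8988 of 18130 of all genes. The 4 Dnaja genes had a median of -0.01 and the 28 Dnajc genes of 0.03. Of the Dnaja genes, Dnaja1, a general cytosolic partner of HSP70, had 174 ± 1.04 CPM at 3M and 179 ± 8.81 CPM at 18M, and a coefficient of variation of 2.40% over the 12 mice.

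The 4 most abundant J proteins, Dnajb3, Dnajb8, Dnajb13 and Dnajc5b, are best known from the testis. Dnajb3, made in spermatids, had 588 ± 21.9 FPKM at 3M, 595 ± 3.60 at 6M, 604 ± 77.5 at 12M and, in the 18M mice, 643 ± 44.3, and a log2 fold change of 0.15 (95% interval 0.00 to 0.29, adjusted p = 0.369 by edgeR). Dnajb13, a radial spoke protein of the sperm tail, had 248, 215 and 242 CPM at 3M and 250, 263 and 273 CPM at 18M, a log2 fold change of 0.16 (0.00 to 0.31). Dnajc5b, the testis relative of the synaptic vesicle J protein Dnajc5, had 194 ± 11.1 and 213 ± 9.46 CPM, a log2 fold change of 0.13 (0.00 to 0.27), and an FPKM 25.0 ± 1.58 times that of Dnajc5 at 3M and 29.5 ± 2.64 times at 18M. With Dnajb7, Dnajb8 and Dnajc5g, these made 6 testis J proteins, grouped after their values were seen, whose summed FPKM was 1400 ± 59.4 at 3M and 1473 ± 171 at 18M. The 18M sum includes a Dnajb8 value of 143 FPKM in the first 18M mouse, against 319 and 337 in the others, as described below. All 6 had a log2 fold change above 0, with a median of 0.15.

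Dnajb8, a J protein that suppresses aggregation, gave 1 library whose value depended on the transcript its reads were placed on. Summed over transcripts it had 337, 317 and 332 CPM at 3M, 318, 335 and 320 at 6M, 348, 345 and 403 at 12M and, in the 18M mice, 348, 363 and 384. All 18M mice were above the 3M mice, with a log2 fold change of 0.15 (95% interval 0.04 to 0.27, adjusted p = 0.303 by edgeR). In the first 18M mouse, however, the single-exon reference transcript (chr6:88222268-88223256) held 1052 reads, against 15070 to 25526 in the other libraries, and 2 longer assembled transcripts that overlap it held 11982 and 5646 reads there, against 39 to 298 elsewhere. Its FPKM in that mouse was 143, against 319 and 337 in the other 18M mice. With reference transcripts alone the log2 fold change was -0.35.

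Of the other J proteins, Dnajc13, an endosomal protein (chr9:104151597-104262930), had 45.6, 54.0 and 48.6 CPM at 3M and 45.6, 40.4 and 41.9 CPM at 18M. The highest 18M mouse lay just below the lowest 3M mouse, and the log2 fold change was -0.21 (95% interval -0.40 to -0.03, adjusted p = 0.325 by edgeR). Dnajc15, a mitochondrial inner membrane J protein, had 144, 128 and 139 CPM at 3M, 129, 136 and 120 at 6M, 128, 120 and 167 at 12M and, in the 18M mice, 174, 147 and 159. The 18M mice were all above the 3M mice, while the 6M mice overlapped the 3M mice, with a log2 fold change of 0.22 (0.05 to 0.40, adjusted p = 0.305 by edgeR). It was named after its values were seen. Dnajc22 had the largest log2 fold change of any J protein, 0.27 (-0.08 to 0.62), at only 1.20 ± 0.0894 CPM at 3M and 1.44 ± 0.0282 CPM at 18M. Dnajb1, the main heat-induced partner of HSP70, had 326 ± 10.5 CPM at 3M and 334 ± 2.44 CPM at 18M, a log2 fold change of 0.04 (-0.06 to 0.13).

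In 4 J proteins with a mean of 1 CPM or more, 1 or 2 libraries held less than 0.5 of the median of the 12, and none of these libraries was from 3M or 18M. Dnajb7, an intronless testis J protein, had 15.8 CPM in one 6M mouse and 12.8 CPM in one 12M mouse, and between 99.6 and 144 CPM in the other 10. Overlapping transcripts of St13 were also lowest in those mice, with 263 and 277 reads, against up to 2324 elsewhere. Dnajc5g had 46.2 CPM in one 6M mouse and 112 to 132 CPM elsewhere. In that mouse an assembled transcript of Trim54 that shares exon sequence with Dnajc5g held 4464 reads, against 666 to 1347 in the other libraries. Dnajb5 had 1.65 and 1.25 CPM in one 6M and one 12M mouse and 4.41 to 8.81 CPM elsewhere, while an overlapping transcript of Phf24 held 950 and 929 reads there, its highest counts, and from 416 reads elsewhere. Dnajc27 had 91.6 and 68.2 CPM in the third 6M and the third 12M mouse and 178 to 230 CPM elsewhere, and shares exons with no other gene. The part of read placement in these values was not tested, and none of the 4 was called. Dnajb5 and Dnajc27 were named after their values were seen.

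**Figure D4:**
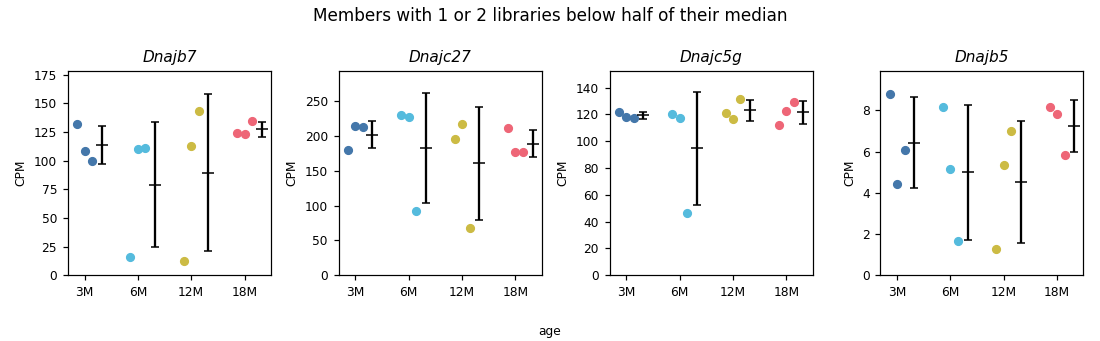
CPM of Dnajb7, Dnajc27, Dnajc5g and Dnajb5 in each of the 12 mice, by age (axis from 0), with the mean and SD of 3 mice in black. In each gene 1 or 2 mice at 6M or 12M lie below 0.5 of the median.

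The BAG genes were led by Bag5, Bag6 and Bag1. Bag5 had 314 ± 3.78 FPKM at 3M and 327 ± 6.42 FPKM at 18M, with 18M mice all above 3M mice and a log2 fold change of 0.07 (95% interval -0.02 to 0.16). Bag6, which is required for spermatogenesis and handles misplaced membrane proteins, had 256 ± 12.3 and 233 ± 10.6 FPKM, a log2 fold change of -0.11 (-0.21 to 0.00, adjusted p = 0.369 by edgeR). Bag1 had 230 ± 15.1 and 250 ± 4.34 FPKM, a log2 fold change of 0.14 (0.00 to 0.28), again with no overlap. Bag3, the stress-induced member that sends clients to autophagy, had 41.9 ± 1.54 CPM at 3M and 38.7 ± 0.431 CPM at 18M, a log2 fold change of -0.12 (-0.24 to 0.00). With reference transcripts alone the log2 fold change of Bag3 was 1.01. Bag2 and Bag4 had 3.83 and 8.89 FPKM over the 12 mice.

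The heat shock factors were modest, and the germ cell factor led them. Hsf5, required in meiotic spermatocytes, had 56.1 ± 1.87 FPKM at 3M, 53.5 ± 1.98 at 6M, 52.7 ± 2.14 at 12M and, in the 18M mice, 51.9 ± 1.10. Its 18M mice were all below the 3M mice, with a log2 fold change of -0.10 (95% interval -0.20 to 0.01, adjusted p = 0.391 by edgeR). Hsf1, the master factor of the heat shock response, had 14.5 ± 1.38 and 13.8 ± 0.495 FPKM at 3M and 18M, and Hsf2, which acts in germ cell development, 15.2 ± 1.97 and 15.7 ± 0.910 FPKM. Their log2 fold changes were -0.05 (-0.23 to 0.13) and 0.01 (-0.21 to 0.24). Hsf4, the factor of the eye lens, was held by 19 reads or fewer in any library, with an estimate of 1.81 whose interval ran from -0.02 to 3.64. Hsf2bp is a meiotic recombination protein that carries the name of the factor it binds. It had 10.5 ± 1.07 FPKM at 3M and 9.31 ± 0.777 FPKM at 18M, and was named after its values were seen.

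Single transcripts were also tested, and the reads of some genes were divided differently between their transcripts in different libraries. Of 279 member transcripts 148 matched a reference transcript exactly (class =), 119 shared a splice junction with one (class j) and 12 overlapped in another way on the same strand (class o). In 62 tested members with more than 1 transcript, the same transcript led in all 12 libraries in 37 and the leader differed in 25. edgeR called 0 of 249 transcripts on the slope, against 6 of 58289 of all transcripts (0.0103%), and 0 of 239 for 18M against 3M, against 59 of 54472 (0.108%). At an unadjusted p of 0.05 or less the slope was rising in 8 (3.21%, against 3.5%) and falling in 12 (4.82%, against 3.65%), and the 18M value was higher in 8 (3.35%, against 2.56%) and lower in 8 (3.35%, against 2.84%).

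DESeq2 called 1 of 234 member transcripts on the slope (0.427%, against 1.35% of all transcripts) and 7 of 231 for 18M against 3M (3.03%, against 3.24%), shares no larger than those over all transcripts. The 7 were the reference transcripts of Hspa8, Hsp90aa1, Hsp90b1 and Dnaja3, all lower at 18M, and a reference transcript of Bag1, an assembled transcript of Dnajc17 and a minor reference transcript of Dnajb2, all higher. The log2 fold changes of the first 6 were -0.11, -0.08, -0.18, -0.16, 0.13 and 0.65, in that order. Hspa8, Hsp90aa1 and Hsp90b1 have 1 transcript each, so these are the same counts as their gene sums, which DESeq2 did not call for 18M against 3M. The scaling and the set of features tested differ between the 2 levels, and their part was not tested. The Dnajb2 transcript has no finite fold, since its 3M mice were all at 0. It held 1.4% of the reads of its gene, with 261, 136 and 318 reads in the 18M mice, while Dnajb2 as a whole had 209 ± 22.2 CPM at 3M and 198 ± 32.1 CPM at 18M. In 2 of the 6 mice at 6M and 12M it was also at 0 reads. The Dnajc17 transcript of class o was also the one called on the slope, and held 145, 144 and 155 reads at 3M and 221, 221 and 322 at 18M. Dnajc17 overlaps Zfyve19 on the opposite strand, and its reference transcript alone had a log2 fold change of -0.05.

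In Bag6, 1 library was divided unlike the others. Its leading assembled transcript held 40245 and 46209 reads in 2 of the 3M mice but 5470 in the other, where the reference transcript that is otherwise minor held 25521 reads, against 2436 to 3876 in the other 11 libraries. Summed over its transcripts, Bag6 had 1078, 1158 and 1149 CPM in the 3M mice. Dnajb1 had such a library too. One assembled transcript with 8879 reads in the first 3M mouse had 0 reads in all other mice, and the reference transcript held 2276 reads there, against 12080 to 20127 elsewhere.

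In all, 44 of the 93 members shared exon sequence with a transcript of another gene, 38 of them with one on the opposite strand, and their counts may hold reads of the neighbour. The other members include Hsp90b1, Hspa8, Hspa9, Hspb9, Hspb7, Dnajb8, Dnajb13 and Dnajc13.

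The rest of the chaperone machinery outside the naming rule was read in the same way. Of 48 further genes (among them Tcp1, the missing subunit of the CCT ring, the prefoldins, HSP90 cochaperones such as Stip1, Ahsa1 and Ptges3, and the spermatid chaperones Calr3, Clgn and Pdilt) 47 were tested, and edgeR called 0 on the slope and 0 for 18M against 3M. At an unadjusted p of 0.05 or less 7 had a rising slope and 0 a falling one, against 8.26% and 9.23% of all genes. With 24 genes above 0 and 23 below, their median log2 fold change was 0.00. The spermatid chaperones had log2 fold changes of 0.19 (Pdilt), 0.18 (Calr3) and -0.10 (Clgn), with adjusted p on the slope of 0.174, 0.257 and 0.377 by edgeR. The lowest value was -0.35, for Ahsa2, and the highest 0.23, for St13.

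Markers of the testis cell types were read beside these results. The 7 round spermatid markers summed to 607 to 731 FPKM in the 3M mice, 711 to 750 at 6M, 740 to 824 at 12M and, in the 18M mice, 788 to 801, and none was listed at 0. Their median log2 fold change was 0.22, and 0 were called by edgeR. A rising slope at an unadjusted p of 0.05 or less was found in 5 of the 7, against 8.26% of all genes. The exception in direction was Acr, at -0.02. The 8 elongating spermatid markers, all above 0 with a median of 0.14 and with sums of 25950 to 28540 FPKM at 3M and 26850 to 31790 FPKM at 18M, and the 9 spermatocyte markers, with a median of -0.01, were not called either. The part of the spermatid lists in the values of Hspb9, Dnajb3, Dnajb8 and Dnajb13 was not tested. Of the 7 Leydig markers edgeR called 3 as falling with age on the slope (Cyp17a1, Cyp11a1 and Lhcgr), against 0.41% of all genes called in either direction. Hsd3b6, Star and Insl3 had log2 fold changes below 0 and were not called. Hsd3b1 went the other way, with a log2 fold change of 0.29, and was not called. The Leydig sum was 1007 to 1165 FPKM at 3M and 699.6 to 967 FPKM at 18M, none of its markers was listed at 0, and its part in the lower values of Hspa5, Hsp90b1 and Hspd1 was not tested. Of the other lists, Sertoli cells, spermatogonia, macrophages, lymphocytes, endothelium, peritubular cells, red blood cells, epididymis and fat, edgeR called 0 genes on the slope. The epididymis marker Lcn5 was listed at 0, and the red blood cell marker Hbb-bt had no entry among the gene sums. The Sertoli sum was 138 to 166 FPKM at 3M and 151 to 174 FPKM at 18M, and the red blood cell sum ran from 12.4 to 26.9 FPKM at 3M and from 0 to 55.6 FPKM at 18M.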

How the data were processed

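Total RNA of 12 whole testes, 1 library per mouse, was sequenced in read pairs after ribosomal RNA depletion with a kit that does not mark strand. The authors aligned reads to mm10 with HISAT2, assembled and merged transcripts with StringTie 1.3.3b, and deposited estimated counts rounded to whole numbers for each transcript. The deposited FPKM values are the authors' StringTie estimates per transcript, not normalised between libraries. Each library divides the reads of overlapping transcripts anew, so transcript values, and in some genes the sums, can shift between libraries.

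Counts were summed here per gene symbol over class codes =, c, j and o, and tested with edgeR 4.0.16 (TMM factors, filterByExpr, quasi-likelihood F-test, R 4.3.3) over all genes or transcripts, for the slope on age in months, any difference among ages, and 18M against 3M. Benjamini-Hochberg adjusted p-values of 0.05 or less were called. DESeq2 1.42.0, other scalings, filters, class codes, a replicate block and leaving out each library were alternatives. The test script was tested on simulated data. Between 50924104 and 71803379 reads per library gave a median half-width of 0.14 for the 95% interval of a member's log2 fold change, against 0.25 over all genes. Table columns were matched to mice by title.

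The members and gene lists were chosen with earlier results of these data known. Members named with values were the 3 highest of each family, any called, the 3 largest rises and falls between 3M and 18M without overlap at 1 CPM or more, and a list with known roles in testis or stress. Others are said to have been named after their values were seen. Mouse numbers did not pair the libraries (correlation of deviations between -0.05 and 0.15 over 18 same-number pairs, 1 above 0.1).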

Additional observations from a re-analysis of the deposited data

Results flagged for a closer look

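Assembled transcripts that lie within an intron of a member or on the strand opposite its exons were left out of every comparison above, and 10 of these groups held reads above the limit that a count of 0 allows (3 reads) in each library. The library kit does not mark strand, so the strand of such a transcript is the assembler's reading of its splice sites. Such transcripts were found at 11 member symbols, 17 of them opposite and 4 intronic.

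The 3 intronic transcripts of Dnajb14 had a mean of 15.8 CPM, the highest of the set. The intronic transcript of Hspa12a had 6.62 CPM, and the opposite one 2.28 CPM. Around Hspb3 6 opposite transcripts had 6.46 CPM and 317 to 508 reads per library, while Hspb3 itself held 3 to 12 reads. Opposite transcripts had 4.66 CPM at Cct4, 1.62 CPM at Dnajb12, 1.28 CPM at Dnajb8, 1.48 CPM at Dnajc13, 1.63 CPM at Dnajc24 and 0.740 CPM at Hsp90aa1.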

How the results depend on the processing

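Under every alternative run with edgeR, including each library left out in turn, 0 members and 0 member transcripts were called. With mouse number as a replicate block, 0 members were called in each of the 5 tests, though the numbers do not pair the mice, and of all genes 42 were called on the slope, 9 for any age difference and 7 for 18M against 3M. DESeq2 called 2 members on the slope and, of transcripts, 1 on the slope and 7 for 18M against 3M; the cause was not tested. Over all genes it called 576 on the slope against 76 by edgeR, 395 against 17 for any age difference and 260 against 12 for 18M against 3M, and of all transcripts 749 against 6 and 1722 against 59. Without 1 library the edgeR counts over all genes ran from 18 (without the third 18M mouse) to 193 (without the first) on the slope, from 8 to 46 for any age difference and from 14 to 25 for 18M against 3M, and over all transcripts from 3 to 8 and from 8 to 25. Other counts past 1.5 times were, on the slope of gene sums, 45 with no filter, 50 with all class codes and 11 with class = only, for any age difference 7 with class = only, and for 18M against 3M 19 with class = only and 22 with all 12 libraries in the fit. For transcripts they were 3 on the slope with no filter and 3 with the block, and for 18M against 3M 22 with no filter, 18 with all 12 libraries in the fit and 0 with the block.

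Reference transcripts alone (class = only) turned the log2 fold change of Bag3 to 1.01, Dnajb8 to -0.35, Dnajc17 to -0.045 and Hspb11 to -0.57. They turned the slope per month to -0.0048 for Dnaja4, -0.0308 for Dnajb14, -0.0176 for Dnajb8, -0.0022 for Dnajc17, -0.004 for Dnajc18, -0.0982 for Hspa12b and -0.0422 for Hspb11. No other alternative turned a direction among the 26 members read for 18M against 3M or the 22 read for the slope. With reference transcripts alone 17 of 50 FPKM levels moved by more than 1 SD, and with all class codes 2 did. Hsf3 and Hspb3 had too few reads to be tested, and the intervals of Hsf4, Hspb2 and Hspb8 were wider than 1 on either side of the estimate.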
